A study of Arabidopsis thaliana with 18 samples.

Results

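Among 27564 genes measured in whole embryos of Arabidopsis thaliana, the thale cress, 59 stood highest at the 32-cell stage by a wide margin. A gene was taken if its mean at that stage was at least 10 TPM and at least 2 times its mean at each of the other 5 stages. The unit, TPM, gives how large a part of a library's transcripts a gene makes up, after allowance for transcript length. Genes of the plastid and mitochondrial genomes were left out, as were 4 identifiers of small cysteine-rich genes (LCR22, LCR23, LCR35 and LCR36), which reached the same level and ratio and would have made 63. The members were therefore chosen by measured values, the stage means over all 18 libraries, and their excess at 32-cell is given as a description, with no test.

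The 18 libraries came from embryos dissected by hand, with 3 libraries at each of 6 stages. Going by cell number or shape, these were 2/4-cell, 8-cell, 16-cell and 32-cell embryos, then globular, then heart. All carried the same label of tissue, embryo, and no ecotype, mutation or treatment is named for any group. Whether replicates came from separate plants, and how many embryos entered each, is not given in the sources used here. In whole embryos, fewer cells that use a gene and less of its RNA per cell cannot be told apart.

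Around the 32-cell stage the Arabidopsis embryo has a separate outer layer, the protoderm, and inner cells, carried on a suspensor of extraembryonic cells, while the endosperm around it is still a fluid-filled tissue of free nuclei. Genes for small secreted peptides rich in cysteines, held together by disulfide bridges, are many in flowering plants. They are known from defence against microbes (defensins, thionins), from pollination and fertilization, and from signalling between endosperm and embryo in the seed. Such a peptide is made as a short precursor whose signal sequence is removed.

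All 12 embryo marker genes, LEC1 and WOX2 among them, were at 1 TPM or more in every 32-cell library, and their summed level there was 1222, 960 and 1057 TPM in replicates 1, 2 and 3. The 11 endosperm markers summed to 26, 12.2 and 35.9 TPM, of which the sucrose carrier gene SUC5 held 24.1, 10.6 and 35.1 TPM. MEA, ZOU, AGL36 and YUC10, which are used in the endosperm, were at 0 in all 3 libraries, and AGL62, a regulator of its free nuclear phase, was at 0.428, 0.09 and 0.0961 TPM. The 16 seed coat markers summed to 110, 348 and 135 TPM, highest in replicate 2, where the flavonoid genes TT4 and BAN reached 101 and 44.4 TPM, and TT10 was at 0 in all 3. The 7 pollen markers summed to 6.95 to 14.1 TPM. The part of other tissues in the members' levels was not tested.

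The 59 members summed to 5400, 6687 and 6461 TPM in the 32-cell libraries. Among the 2/4-cell libraries the sum was 684 to 903 TPM, among those of 8-cell 659 to 1256 TPM and among those of 16-cell 1590 to 2223 TPM. It was 653 to 2950 TPM in globular and 372 to 466 TPM in heart libraries. No library of another stage reached the lowest 32-cell library. The ratio of a member's 32-cell mean to its next highest stage had a median of 2.99 and went from 2.00 to 10.1. It was 3 or more in 29 members and 5 or more in 10. These 10 had next highest stage means of only 1.16 TPM (AT3G28250) to 3.48 TPM (AT3G01325), so their ratios divide by low values. The next highest stage was globular for 25 members, 16-cell for 15, 2/4-cell for 12, heart for 5 and 8-cell for 2. Most members sat low, with a median 32-cell mean of 22.5 TPM and 9 at 100 TPM or more.

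In 31 of the 59, the lowest 32-cell library was above every library of every other stage. Among the 18338 tested genes, those reaching 1 TPM in 3 or more libraries, 0.883% met this, and since the rule used the same values nothing is read from the excess. The other 28 overlapped at least 1 library of another stage, so their peak was one of stage means and not of every library.

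**Figure D1:**
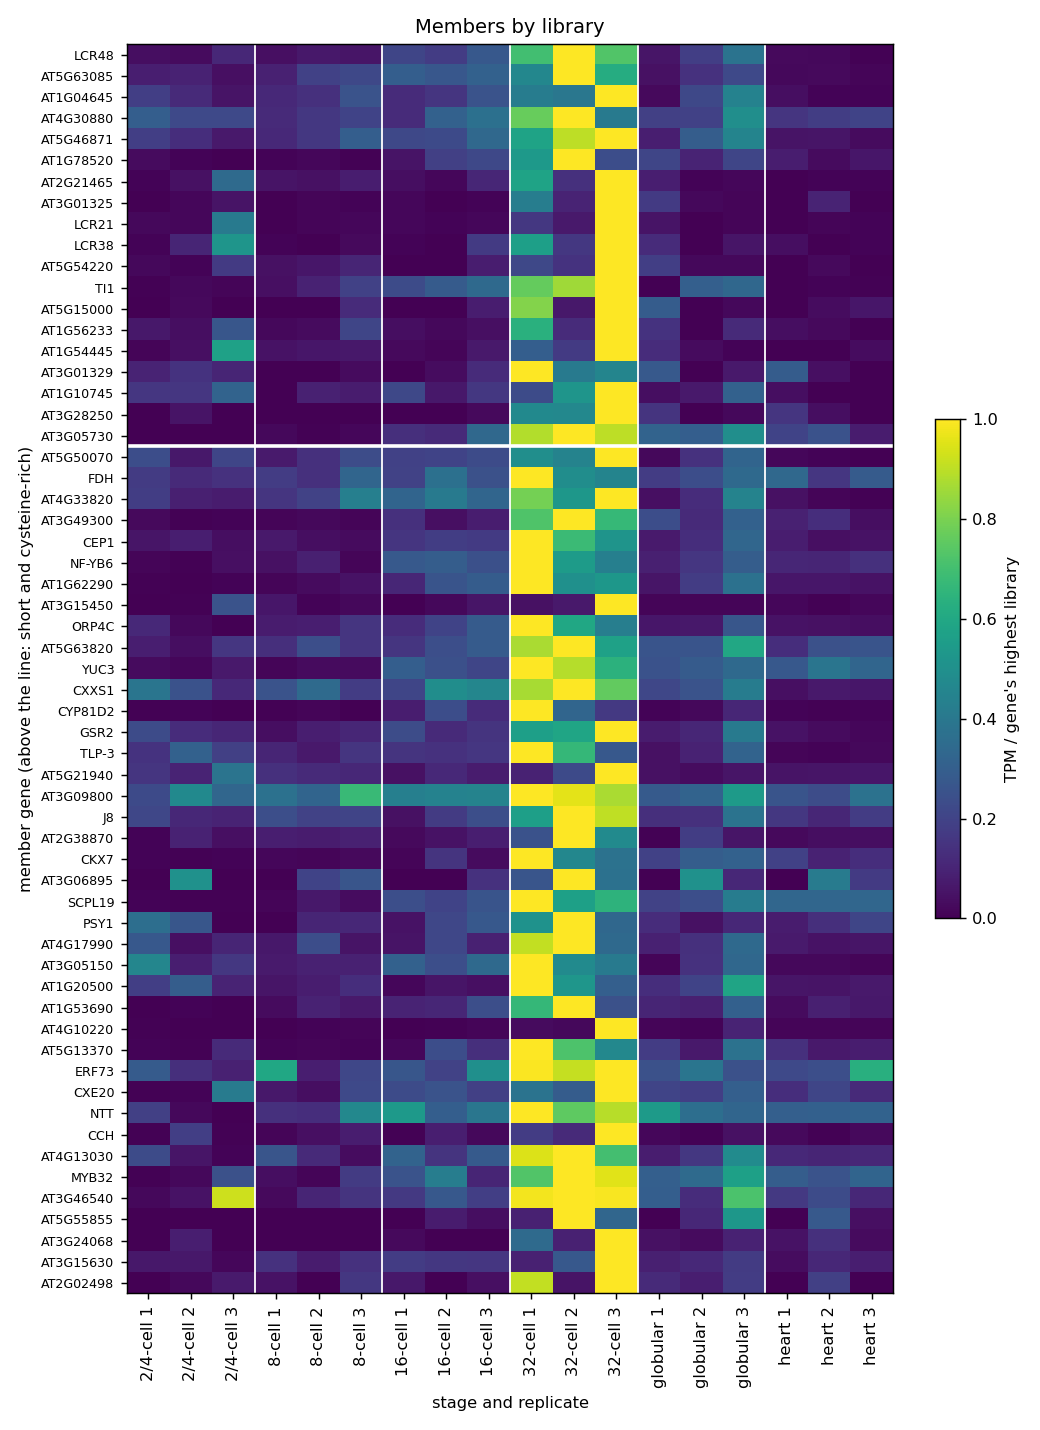
Each row is 1 of the 59 members and each column 1 of the 18 libraries in stage order, and the colour gives the TPM divided by the gene's own highest library, from 0 to 1. Rows above the white line are the 19 short, cysteine-rich members and rows below it the other 40. The brightest cells lie in the 32-cell columns, but several rows are bright in 1 or 2 of those columns, and globular replicate 3 is the brightest globular column for 43 of 59 rows.

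A trait common among the members was the kind of protein encoded. The rule's level and ratio did not use it directly, though the TPM they used allows for transcript length. Of the 59 members, 30 (50.8%) had a longest coding sequence of 150 codons or fewer, against 12.2% of the 18220 tested genes with a coding sequence. The median was 133 codons among members and 378 among the tested genes. Members had a median of 2.73 cysteine codons per 100 codons and the tested genes 1.6. Both traits together, 150 codons or fewer with at least 6 cysteine codons, were found in 19 members (32.2%), in 2.03% of the tested genes and in 1.25% of the 10892 tested genes with a 32-cell mean of 10 TPM or more. The 4 identifiers that the rule left out also had both traits, so the members' share was altered by the rule. These limits on length and cysteines were set after the members had been seen, so the shares carry no test. Of the 19, 8 had no overlap with a library of another stage, as did 23 of the other 40. The 19 held 3774, 5349 and 4891 TPM of the members' sum in the 32-cell libraries and the other 40 held 1626, 1338 and 1570 TPM. The sum of the 19 rested on a few genes, with 32-cell means of 2309 TPM for LCR48, 840 TPM for AT5G63085 and 773 TPM for AT1G04645. The median 32-cell mean was 20.5 TPM among the 19 and 22.7 TPM among the other 40.

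**Figure D2:**
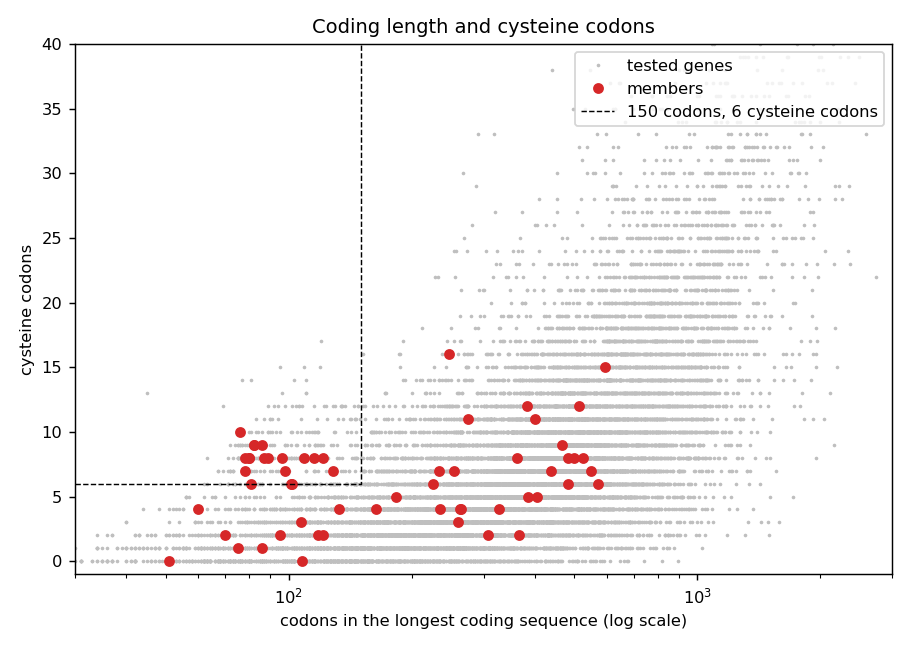
Codons in the longest coding sequence of the reference annotation (log scale) against the number of cysteine codons, with tested genes as grey points and members as red points; a few tested genes lie beyond the axes. The 19 members inside the dashed corner, at 150 codons or fewer with 6 or more cysteine codons, stand above most grey points of the same length.

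The most abundant member was LCR48 (AT3G48231), whose gene encodes a low-molecular-weight cysteine-rich protein of 80 codons with 8 cysteine codons. It was at 1987, 2856 and 2083 TPM in the 32-cell libraries, at 602, 508 and 791 TPM at 16-cell and at 158, 530 and 1084 TPM at globular. At 2/4-cell it was at 110, 87.9 and 319 TPM, at 8-cell at 122, 185 and 161 TPM and at heart at 74.6, 59.4 and 21 TPM. The lowest 32-cell library was thus above globular replicate 3, the highest of the others.

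AT5G63085, annotated to the thionin family of small antimicrobial proteins, was at 559, 1210 and 749 TPM at 32-cell. Its 16-cell libraries were the next, at 360, 327 and 378 TPM, and its heart libraries the lowest, at 27.6, 29.7 and 15.5 TPM. AT1G04645 belongs to the S1 family, named after the stigma protein by which poppy rejects its own pollen, and was at 538, 504 and 1276 TPM at 32-cell. Globular replicate 3, at 565 TPM, lay above 2 of those libraries, so the stages overlapped. AT5G46871, annotated as a putative membrane lipoprotein, was at 99.3, 154 and 171 TPM at 32-cell and at 77.2 TPM in the highest other library. These 3 genes and LCR48 shared a low heart level.

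AT4G30880, annotated to the bifunctional inhibitor and lipid transfer proteins, was at 349, 454 and 186 TPM at 32-cell, and its globular replicate 3, at 225 TPM, lay above the lowest of these.

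The promoters of these 5 genes are shown because they were the 5 short, cysteine-rich members with the highest 32-cell means. Each runs from 250 bases before to 50 bases from the annotated transcript start of RefSeq's TAIR10.1, read on the gene's strand. LCR48 is at chr3:17858825-17859124 (minus strand), AT5G63085 at chr5:25302564-25302863 (plus strand), AT1G04645 at chr1:1294214-1294513 (minus strand), AT4G30880 at chr4:15034957-15035256 (plus strand) and AT5G46871 at chr5:19017692-19017991 (plus strand). Capitals mark every match to the W-box (TTGACC, both strands), the CCAAT box (CCAAT, both strands), the TATCCA element (TATCCA, both strands), the RY core (CATGCA, both strands) and the TATA box (TATAAA, the gene's strand only).
LCR48: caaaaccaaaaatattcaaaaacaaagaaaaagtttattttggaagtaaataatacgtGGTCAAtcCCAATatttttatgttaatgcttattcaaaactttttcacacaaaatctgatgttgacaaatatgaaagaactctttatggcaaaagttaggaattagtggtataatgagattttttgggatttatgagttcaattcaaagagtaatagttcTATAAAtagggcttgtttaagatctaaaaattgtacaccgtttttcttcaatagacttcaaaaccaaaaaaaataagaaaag
AT5G63085: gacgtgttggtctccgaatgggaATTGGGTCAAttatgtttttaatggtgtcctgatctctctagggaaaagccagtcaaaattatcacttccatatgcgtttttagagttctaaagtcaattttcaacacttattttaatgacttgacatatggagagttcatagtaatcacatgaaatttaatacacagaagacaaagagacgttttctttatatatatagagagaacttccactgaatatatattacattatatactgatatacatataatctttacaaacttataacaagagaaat
AT1G04645: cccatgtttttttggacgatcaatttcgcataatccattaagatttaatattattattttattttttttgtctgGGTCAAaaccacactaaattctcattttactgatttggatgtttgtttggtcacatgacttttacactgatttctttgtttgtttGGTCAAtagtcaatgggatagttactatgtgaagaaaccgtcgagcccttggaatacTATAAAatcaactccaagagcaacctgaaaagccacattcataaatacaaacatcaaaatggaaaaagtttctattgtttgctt
AT4G30880: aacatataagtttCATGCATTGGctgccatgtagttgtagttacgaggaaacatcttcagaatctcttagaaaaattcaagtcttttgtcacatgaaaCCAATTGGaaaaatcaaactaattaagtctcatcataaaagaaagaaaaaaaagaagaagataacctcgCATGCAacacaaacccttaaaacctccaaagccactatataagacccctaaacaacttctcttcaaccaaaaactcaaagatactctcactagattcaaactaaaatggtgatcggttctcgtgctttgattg
AT5G46871: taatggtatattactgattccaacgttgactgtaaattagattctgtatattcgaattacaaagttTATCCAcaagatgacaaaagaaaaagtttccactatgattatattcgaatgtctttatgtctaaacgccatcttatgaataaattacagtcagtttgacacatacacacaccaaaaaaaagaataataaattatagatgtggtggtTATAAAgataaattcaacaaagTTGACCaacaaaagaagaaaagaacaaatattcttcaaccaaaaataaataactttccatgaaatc

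Of the 5 windows, 4 held the W-box letters, the motif to which WRKY factors bind, and that of AT4G30880 held RY cores and CCAAT boxes but none. Counted from the transcript start, the W-box letters begin at -192 in LCR48, -223 in AT5G63085, -176 and -91 in AT1G04645 and -16 in AT5G46871. In AT5G63085 the W-box overlaps a CCAAT box by 1 base. Over all windows of the same length, the W-box letters were in 9 of the 19 short, cysteine-rich members (47.4%), in 15 of the 59 members (25.4%) and in 14.2% of 27444 genes. The TATA box was in 57.6% of the members and 37.2% of all genes, and the RY core, the motif of LEC2, FUS3 and ABI3, in 16.9% and 9.72%. The CCAAT box was in 55.9% and 51.6%, the G-box CACGTG in 5.08% and 7.68%, the auxin response element TGTCTC in 10.2% and 14.2%, the evening element AAATATCT in 5.08% and 5.65%, the TATCCA element in 15.3% and 16.1% and the GCC box GCCGCC in 0% and 2.57%. A match of letters is a description of the window, not a binding site.

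The other short, cysteine-rich members were spread over several families. The X8 domain genes AT1G78520 and AT3G28250, named for a carbohydrate-binding fold, were at 40.1, 74.3 and 17.6 TPM and at 8.6, 8.44 and 18.1 TPM. AT3G28250 had the highest ratio of all members, 10.1, with no overlap, but its next stage, heart, had a mean of only 1.16 TPM. TI1 (AT2G43510), a trypsin inhibitor of the defensin fold, was at 16.6, 18.6 and 21.7 TPM and at 7.38 TPM in the highest other library. The defensin-like AT3G05730 was close to the level limit, at 9.82, 11.1 and 10 TPM, and was not detected at 2/4-cell, where all 3 libraries were listed at 0. AT1G78520, AT3G28250, TI1 and AT3G05730 stood clear of every library of another stage.

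AT1G10745, annotated as a maternally expressed family protein, is also named ESF1.2, for EMBRYO SURROUNDING FACTOR. The gene encodes a peptide of a family known from the central cell and endosperm and for its action on the suspensor. It was at 4.8, 10.9 and 20.9 TPM at 32-cell, and 2/4-cell replicate 3, at 6.65 TPM, exceeded the lowest of them. The ECA1 family, annotated as related to gametogenesis, had AT3G01329 at 20.3, 8.34 and 9.23 TPM and AT5G15000 at 24.3, 1.91 and 29.9 TPM. AT3G01329 and AT3G01325 lie on the same chromosome with 3 genes between them. Only AT3G01329 of these was above all its other libraries in every 32-cell library.

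In 8 members (13.6%), 32-cell replicate 2 was lower than each of replicates 1 and 3 by 2 times or more. Of the 10892 tested genes with a 32-cell mean of 10 TPM or more, this held for 0.505%. Since the rule used the mean of these same libraries, nothing is read from the excess. The 8 were AT1G56233, AT2G02498, AT2G21465, AT3G01325, AT3G24068, LCR38 (AT4G19905), LCR21 (AT4G29283) and AT5G15000, and 6 of them were short and cysteine-rich. The defensin-like AT2G21465 was at 28.3, 6.8 and 48.8 TPM, AT3G01325 at 21.9, 5.21 and 51.6 TPM, LCR38 at 20.1, 5.84 and 35.6 TPM and LCR21 at 10, 4.23 and 61.7 TPM. None of the 8 stood above all other libraries in each 32-cell library. The remaining short, cysteine-rich members AT5G54220 and AT1G54445 were also lowest in replicate 2, at 9.59, 6.54 and 44.2 TPM and at 8.01, 4.58 and 26.9 TPM.

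In 6 of the 8, 2/4-cell replicate 3 was the highest 2/4-cell library, as it was for 35.2% of tested genes. It was at 25.1 TPM for LCR21, 18.5 TPM for LCR38 and 16.8 TPM for AT2G21465, against at most 3.64 TPM in the other 2/4-cell libraries of these 3 genes. Globular replicate 1 was the highest globular library in 6 of the 8 and in 36% of tested genes, while among the other 51 members globular replicate 3 was the highest in 41 (80.4%). LCR21 lies next to LCR22 (AT4G29280), one of the left-out identifiers. The 4 left-out genes together were at 88.8, 64.6 and 292 TPM at 32-cell. SUC5 was also lowest in 32-cell replicate 2, and its 2/4-cell libraries were at 29.9, 10.8 and 19 TPM, highest in replicate 1. Among endosperm markers, the summed level at 2/4-cell was 30.3, 12.2 and 101 TPM, highest in replicate 3. Their part in the levels of these 8 members was not tested.

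In some members, AT3G01325, AT3G24068 and LCR21 of the 8 above among them, 1 of the 32-cell libraries stood far above the others. In 14 members (23.7%), 32-cell replicate 3 was at least 2 times both other 32-cell libraries, against 0.588% of the 10892 genes, and 6 of the 14 were short and cysteine-rich. The same held for replicate 1 in 5 members (0.129% of the genes) and for replicate 2 in 3 (0.459%). A single high library lifts the mean that the rule used, so nothing is read from these excesses. Among the other 8 of the 14, the widest gaps were in AT4G10220, a gene for a putative NEP-interacting protein, at 1.29, 1.02 and 47.1 TPM, and AT3G15450, annotated as aluminum induced, at 7.28, 11.4 and 164 TPM. AT5G21940 was at 5.76, 13.6 and 60.6 TPM, CCH (AT3G56240), a copper chaperone, at 4.98, 3.36 and 28.2 TPM and AT3G15630 at 2.14, 6.32 and 23.1 TPM. In each of these 5 genes a library of another stage was above the lowest 32-cell library, and the stage mean came from replicate 3. Of the 14, AT3G28250 and AT5G50070 showed no overlap, and AT5G50070 and AT3G01325 were still members without replicate 3. Without 32-cell replicate 3 the same rule took 67 genes, of which 43 were among the 59 (72.9% of them), and 17 of the 67 (25.4%) were short and cysteine-rich.

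**Figure D3:**
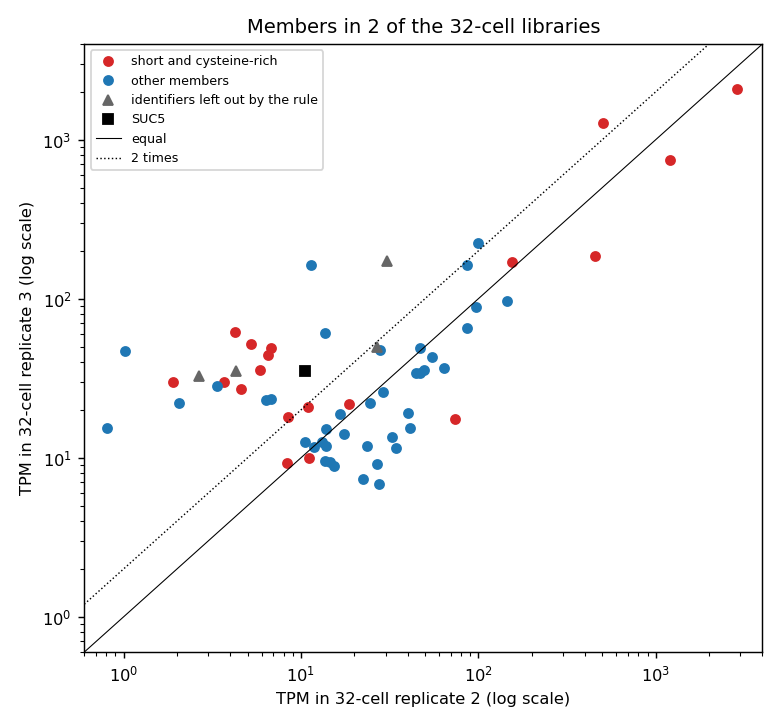
TPM of each member in 32-cell replicate 2 against replicate 3 (both log scales), with red points for the 19 short, cysteine-rich members, blue points for the other 40, triangles for the 4 left-out identifiers and a square for SUC5. Points above the dotted line are at least 2 times as high in replicate 3; the most abundant, LCR48, sits below the line of equality, and a group of low ones, LCR21 and LCR38 among them, sits far above the dotted line.

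Enzymes that cut proteins, their inhibitors and cell wall proteins made up another group. CEP1 (AT5G50260), a papain-type protease known from the programmed death of tapetum cells, was at 127, 86.4 and 65.6 TPM at 32-cell, at 19.5, 23 and 21.4 TPM at 16-cell and at 9.33, 16.5 and 42 TPM at globular. Every 32-cell library was above every other. AT1G62290, an aspartyl protease with a saposin-like insert, was at 93.3, 46.9 and 49.3 TPM at 32-cell and at 0.322 to 0.836 TPM at 2/4-cell. The invertase and pectin methylesterase inhibitor gene AT5G50070 was at 110, 100 and 223 TPM, with globular replicate 3 the highest other library at 72.3 TPM. AT2G38870, a serine protease inhibitor of the potato inhibitor I type, was at 10.1, 40.2 and 19.2 TPM and did not exceed 7.33 TPM elsewhere. The proline-rich AT3G49300 was at 105, 145 and 97.2 TPM against at most 45.2 TPM, and the glycosyl hydrolase gene AT4G33820 at 129, 86.1 and 163 TPM against at most 72.6 TPM. These 6 genes, put together by annotation after their values were seen, each stood clear of their other libraries, while the inhibitor-annotated AT4G30880 did not.

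Members with roles in hormone supply and peptide signalling were few. YUC3 (AT1G04610), a flavin monooxygenase of the last step of auxin synthesis, was at 53, 47 and 34.1 TPM at 32-cell. It stayed between 11.1 and 20.5 TPM at 16-cell, globular and heart and between 0.764 and 3.64 TPM at 2/4-cell and 8-cell. CKX7 (AT5G21482), a cytokinin oxidase of the cytosol, which breaks cytokinin down, was at 37.5, 17.4 and 14.1 TPM and at no more than 11.6 TPM elsewhere. Both were above all their other libraries. The GH3 family member AT5G13370, of a family that joins amino acids to hormones and related acids, was at 20.3, 14.6 and 9.44 TPM and at 7.64 TPM in globular replicate 3. PSY1 (AT5G58650), the precursor of a tyrosine-sulfated growth peptide, was at 17.6, 34.5 and 11.5 TPM, and 2/4-cell replicate 1, at 12.4 TPM, overlapped it.

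Transcription factors among the members included NF-YB6 (AT5G47670), the LEC1-LIKE subunit of the CCAAT-binding complex, known from embryo and seed maturation. It was at 100, 54.8 and 43 TPM at 32-cell, at 28, 29.5 and 24.4 TPM at 16-cell and at 8.65, 15.9 and 29.3 TPM at globular, with no overlap. NTT (AT3G57670), a zinc finger factor needed for the root's distal stem cells together with WIP4 and WIP5, was at 14.1, 10.6 and 12.6 TPM and at 7.67 TPM in its highest other library. MYB32 (AT4G34990) was at 9.53, 13.1 and 12.5 TPM against at most 7.46 TPM. ERF73 (AT1G72360), a group VII ethylene response factor known from low oxygen, was at 15, 13.8 and 15.1 TPM against at most 9.52 TPM. All 4 factors stood clear of their other libraries.

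Metabolic and other genes formed the rest. FDH (AT5G14780), the mitochondrial formate dehydrogenase, was at 198, 97.2 and 89 TPM and at 72.8 TPM in its highest other library. SCPL19 (AT5G09640), which makes the seed ester sinapoylcholine, was at 29.1, 16.5 and 18.8 TPM and CYP81D2 (AT4G37360), a cytochrome P450, at 72.3, 23.6 and 11.9 TPM. GSR2 (AT1G66200), a cytosolic glutamine synthetase, was at 26.8, 28 and 47.6 TPM. CXXS1 (AT1G11530), a thioredoxin-like protein, was at 38.9, 44.7 and 33.9 TPM, ORP4C (AT5G57240), a relative of oxysterol-binding proteins, at 82.7, 49.2 and 35.5 TPM and TLP-3 (AT1G75030), a thaumatin-like protein, at 48.8, 32.5 and 13.5 TPM. Of these 7, only CYP81D2 and TLP-3 overlapped another stage, each by its 32-cell replicate 3. AT3G06895 had a short transcript with close relatives elsewhere in the genome. Among them were matches 97.3% identical over 68.7% of it and, for AT1G49245, 94.7% identical over 81% of it. Its reads may therefore be shared and its 10.9, 41.2 and 15.4 TPM are uncertain. No member had a near-identical copy, taken as at least 95% identity over at least 80% of the transcript, though AT3G06895 came close to this limit.

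The remaining members were of mixed kinds. AT3G46540, of the ENTH/VHS family of vesicle coat adaptors, had the most even 32-cell libraries, at 11.6, 11.8 and 11.7 TPM, yet 2/4-cell replicate 3 came close at 10.9 TPM. J8 (AT1G80920), a DnaJ-domain chaperone, was at 16.3, 28.9 and 26.1 TPM against at most 11 TPM elsewhere, AT4G13030 at 12.9, 13.6 and 9.53 TPM against at most 6.54 TPM and the SNARE-like AT3G09800 at 25.4, 24.4 and 22.2 TPM against at most 17.2 TPM. AT4G17990, at 24.3, 26.7 and 9.12 TPM, cleared its highest other library, 9.1 TPM, by less than 0.1 TPM. These 5 had no overlap. AT5G63820, the major facilitator transporter gene AT3G05150, AT1G20500, the RNA polymerase subunit gene AT1G53690, the carboxylesterase gene CXE20 (AT5G62180) and the ubiquitin-like AT5G55855 overlapped another stage. The lowest of these 6 in a single 32-cell library was AT5G55855, at 2.06, 22.5 and 7.4 TPM, with globular replicate 3 at 11.9 TPM.

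The limits of the rule fell within a continuous range. Just inside the ratio were AT1G20500 at 2.003, AT5G21940 at 2.06 and AT3G09800 at 2.064, and just outside it AT5G17120 at 1.985, RVE2 (AT5G37260) at 1.976 and AT4G08760 at 1.964. Just inside the level were AT3G15630 at 10.5 TPM, AT3G05730 at 10.3 TPM and AT2G02498 at 10 TPM on average, and just outside it PEI1 (AT5G07500) at 9.85, NIA2 (AT1G37130) at 9.75 and AT1G70000 at 9.38 TPM.

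**Figure D4:**
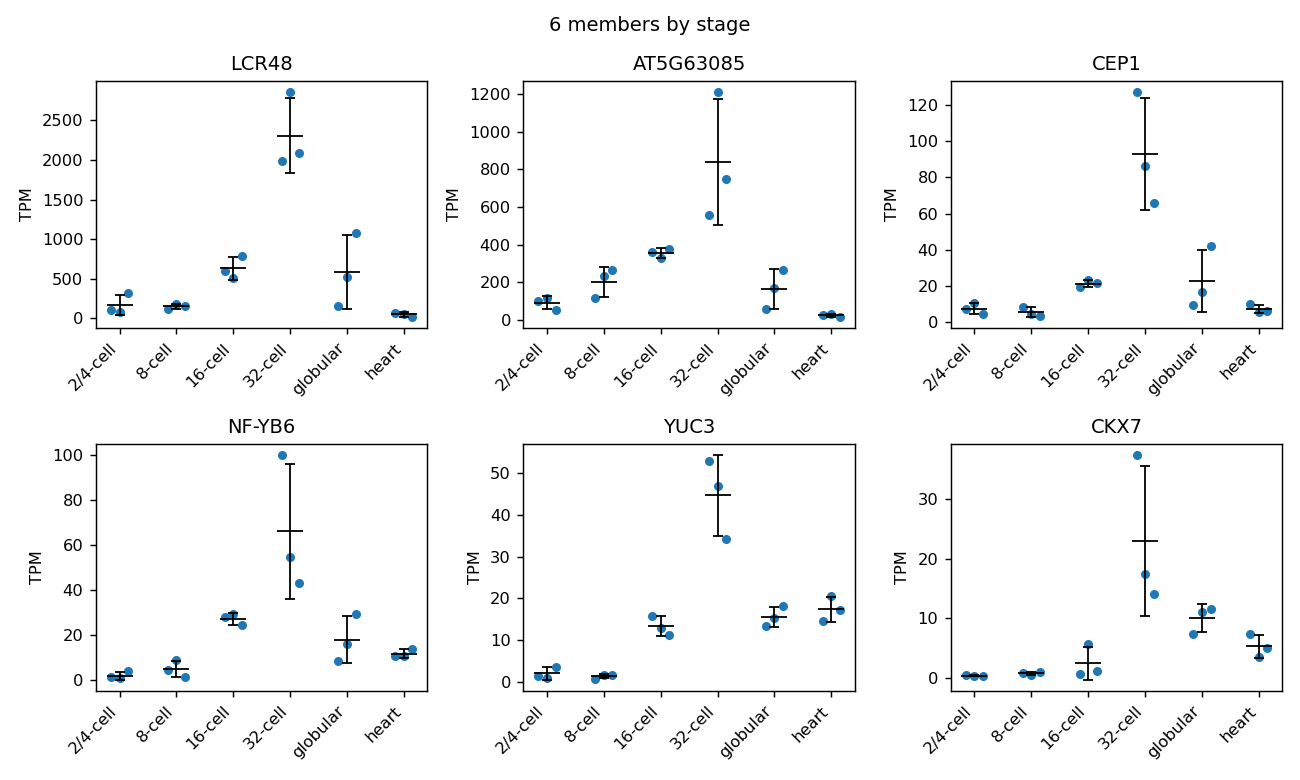
TPM (linear axis from 0, a scale for each panel) in the 3 libraries of each stage, replicates 1 to 3 from left to right, for LCR48, AT5G63085, CEP1, NF-YB6, YUC3 and CKX7, with black bars for the mean ± SD (n = 3). In each panel the 32-cell points lie above all others, and YUC3 alone of these 6 has a heart mean above its globular mean.

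Stages other than 32-cell were compared with each other, since the rule did not fix a direction among them. It did cap each of their means against the 32-cell mean, so members' shares beside those of all tested genes are a description. The test was limma's moderated test on log2(TPM + 1), fitted to all 18 libraries and 18338 genes with a weight for each stage. All 59 members were tested, a gene was called at a Benjamini-Hochberg adjusted p under 0.05 over all tested genes, and folds are 2 to the power of the fitted log2 change, so the added 1 TPM makes them smaller for low genes. The first 2 comparisons below share the 16-cell libraries and the last 2 the globular libraries, so each is given by its own values.

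Between 2/4-cell and 16-cell, 4 members rose, in a background of 2.36% of tested genes called higher at 16-cell. They were YUC3, AT1G62290, SCPL19 and NF-YB6. Markers of other tissues moved with this comparison: the seed coat markers summed to 415, 924 and 1506 TPM at 2/4-cell and to 43.8 to 58.2 TPM at 16-cell, and the pollen markers to 463, 96.8 and 285 TPM and to 4.28 to 11.3 TPM. Their part in the members' changes was not tested. YUC3 went from 1.48, 0.874 and 3.64 TPM to 15.8, 12.9 and 11.1 TPM, 5.07-fold (log2 change 2.34, SE 0.45, limma adjusted p = 0.00295). SCPL19 went from 0.253, 0.182 and 0.199 TPM to 7.03, 5.91 and 7.55 TPM, 6.44-fold (log2 change 2.69, SE 0.55, limma adjusted p = 0.00503). In both genes the 2 groups of libraries were far apart. Both calls held when any 1 library was left out, but that of YUC3 was lost with only the stages compared in the fit (limma adjusted p = 0.0574) and that of SCPL19 with a pseudocount of 5 (0.0502).

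NF-YB6 went from 1.25, 0.755 and 4.03 TPM to 28, 29.5 and 24.4 TPM, 10.4-fold (log2 change 3.38, SE 0.78, limma adjusted p = 0.0116). The call was lost without 2/4-cell replicate 2 (limma adjusted p = 0.0844) or 16-cell replicate 2 (0.0748). AT1G62290 went from 0.663, 0.322 and 0.836 TPM to 10.1, 24.3 and 27.2 TPM, 12.5-fold (log2 change 3.64, SE 0.92, limma adjusted p = 0.0205). Its call was lost without any 1 of the 2/4-cell libraries (0.0563, 0.102 and 0.0676 for replicates 1, 2 and 3) or without 16-cell replicate 2 (0.119). A pseudocount of 5 also lost it (limma adjusted p = 0.0856). No member was called lower by limma, where 3.47% of tested genes were, and at an unadjusted p under 0.05 there were 13 higher and 0 lower. Of the 18338 tested genes, 3202 were under this unadjusted limit, and 9.13% of the tested genes were under it and lower. The members' median log2 change was 0.55, and that of all tested genes was -0.00. All 4 called were among the 40 members that were not short and cysteine-rich, whose median was 0.75, and the median of the 19 was -0.13.

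Between 16-cell and globular, on either side of the peak, 2 members rose, where 19.7% of tested genes were called higher at globular. The rule bounds a member's globular mean by its 32-cell mean, so nothing is read from the members' share. CKX7 went from 0.535, 5.59 and 1.15 TPM to 7.26, 11.1 and 11.6 TPM, 3.87-fold (log2 change 1.95, SE 0.49, limma adjusted p = 0.00747). The call was lost without 16-cell replicate 1 (0.0755) and with only the stages compared in the fit (0.0565). AT1G20500, of the acyl-activating enzyme superfamily, went from 0.538, 1.71 and 1.2 TPM to 3.77, 5.87 and 17 TPM, 4.01-fold (log2 change 2.00, SE 0.59, limma adjusted p = 0.0201). It was lost without 16-cell replicate 1 (0.1) or replicate 2 (0.0835), with a pseudocount of 5 (0.0555) or with quantile normalization (0.0602). No member was called lower by limma (4.05% of tested genes), and at an unadjusted p under 0.05 there were 3 higher and 2 lower. Of the 18338 tested genes, 6997 were under this unadjusted limit, and 6.71% of the tested genes were under it and lower. The median log2 change was 0.03 among members and 0.38 among all tested genes. Without globular replicate 3, in which 43 of 59 members had their highest globular level against 21.6% of tested genes, 5 members were called lower at globular. The share of tested genes called lower in that fit is not given here, so nothing is read from this count.

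Between globular and heart, 14 members fell, in a background of 1.48% of tested genes called lower at heart. By kind these were 6 of the 19 short, cysteine-rich members and 8 of the other 40. No member was called higher by limma (2.29% of tested genes), and at an unadjusted p under 0.05 there were 25 lower and 0 higher. Of the 18338 tested genes, 2675 were under this unadjusted limit, and 4.96% of the tested genes were under it and lower. The median log2 change was -0.80 among members and 0.08 among all tested genes, and 50 of 59 members had a change below 0, against 36.7% of tested genes. Heart was the lowest of the 6 stages for 23 members (39.0%) and for 11.3% of tested genes.

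LCR48 went from 158, 530 and 1084 TPM to 74.6, 59.4 and 21 TPM, 9.7-fold lower (log2 change -3.28, SE 0.47, limma adjusted p = 3.3e-04). AT5G63085 went from 54.8, 171 and 267 TPM to 27.6, 29.7 and 15.5 TPM, 5.62-fold lower (log2 change -2.49, SE 0.39, limma adjusted p = 7.4e-04). Both held when any 1 library was left out, as did CXXS1, which went from 9.48, 11.4 and 18.7 TPM to 1.85, 2.97 and 2.79 TPM, 3.91-fold lower (log2 change -1.97, SE 0.25, limma adjusted p = 8.2e-05). With only the stages compared in the fit, however, the calls of LCR48 (limma adjusted p = 0.131) and AT5G63085 (0.129) were lost, and that of AT5G63085 also without the filter (0.0509). In these 3 genes the groups did not overlap, although LCR48 and AT5G63085 varied widely at globular.

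AT1G04645 went from 33.4, 279 and 565 TPM to 47.1, 14 and 10.6 TPM, 8.67-fold lower (log2 change -3.12, SE 0.67, limma adjusted p = 0.0104), and the groups overlapped. The call was lost without globular replicate 3 (0.0991), heart replicate 2 (0.0546) or heart replicate 3 (0.133). AT5G50070 went from 4.68, 32.1 and 72.3 TPM to 4.1, 2.56 and 0.38 TPM, 8.19-fold lower (log2 change -3.03, SE 0.62, limma adjusted p = 0.00635), and was lost without globular replicate 3 (0.064) or heart replicate 3 (0.109). AT5G46871 went from 14.6, 50.1 and 77.2 TPM to 9.3, 9.77 and 4.88 TPM, 4.57-fold lower (log2 change -2.19, SE 0.40, limma adjusted p = 0.00291), and was lost without heart replicate 3 (0.0555). The calls of these 3 genes were also lost without the filter and with only the stages compared. Equal weights lost those of AT1G04645 (limma adjusted p = 0.068) and AT5G50070 (0.0579). The other 8 called lower were AT4G33820, TLP-3, TI1, GSR2, AT1G20500, AT1G78520, AT3G49300 and CEP1, by 2.47-fold to 5.75-fold, and each lost its call when some libraries were left out. All 8 also lost it without the filter and with only the stages compared. Of the 18 libraries left out in turn, TI1 lost its call for 17, AT1G78520 for 13, CEP1 for 12 and the other 5 genes for 2 or 3. The 14 calls became 4 without globular replicate 3, 3 without heart replicate 3 and 8 without heart replicate 2. With only the stages compared in the fit, 1 call was left. The shares of tested genes called in these fits are not given here.

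**Figure D5:**
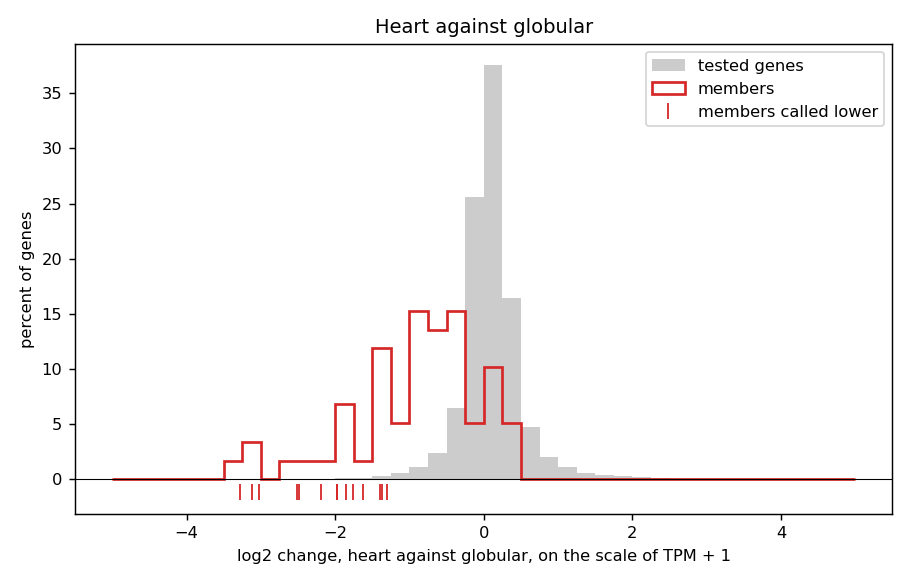
Distribution of the fitted log2 change from globular to heart, on the scale of TPM + 1, in percent of genes per bin, for the 18338 tested genes (grey) and the 59 members (red outline); red ticks below the axis mark the 14 members called lower at an adjusted p under 0.05. The members' outline lies to the left of the grey one, with medians of -0.80 and 0.08.

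Of 204 genes in 13 lists of embryo regulators and tissue markers, 2 were members, NF-YB6 in the embryo markers and NTT in the list of root, ground tissue and vascular genes. The other genes of these 2 lists are by construction genes without the peak, and their changes on either side of 32-cell are given for context. From 16-cell to 32-cell, where 4.86% of tested genes were called higher and 0.48% lower, 6 of the 20 other root and vascular genes rose. From 32-cell to globular, where 8.29% were called higher and 5.75% lower, 7 of the 20 rose. AHP6, a cytokinin signalling inhibitor of the vascular cells, rose 16.2-fold to 66.2 ± 23.3 TPM at 32-cell (limma adjusted p = 8.4e-06) and 2.22-fold again to 144 ± 20.1 TPM at globular (limma adjusted p = 0.00895). HSFB4, WOX5 and SCR, regulators of the root's stem cell region and ground tissue, likewise rose at both steps. WIP5, of NTT's own family, rose 3.93-fold to 4.95 ± 3.12 TPM (limma adjusted p = 0.0122) and was at 4.89 ± 1.43 TPM at globular.

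Of the 11 other embryo markers, 1 rose (ABI3) and 1 fell (WOX2) from 16-cell to 32-cell, and 2 rose (LEC1 and ABI3) and 1 fell (WOX8) from 32-cell to globular. LEC1, the closest relative of NF-YB6, was at 311 ± 130 TPM at 16-cell, 381 ± 74 TPM at 32-cell and 542 ± 42 TPM at globular. Its last step was 1.44-fold (limma adjusted p = 0.0339), whereas NF-YB6 had its mean maximum at 32-cell, 66 ± 30.1 TPM.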

How the data were processed

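Messenger RNA was captured by its poly(A) tail from hand-isolated embryos and its cDNA amplified with a low-input kit, per the labels' protocols. Reads were trimmed with Trim Galore 0.6.6 and quantified with kallisto 0.44.0 against TAIR10, per the submitters' processing notes, and the authors deposited the resulting TPM as a single table by gene. The step from transcripts to genes is not given in the sources used here. Each library summed to 1000000 TPM, so depth and counting error are unknown and no interval or detection limit could be given.

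From that table, means and SD per stage were computed (n = 3). Names, coding sequences and promoter windows came from RefSeq's TAIR10.1, whose build name differs from the authors' TAIR10, and 27445 of 27564 identifiers matched. Transcript similarity was searched with BLAST 2.17.0. Genes reaching 1 TPM in 3 or more libraries were fitted with limma 3.58.1 in R 4.3.3 on log2(TPM + 1), with a pseudocount of 1, 1 mean and 1 weight per stage and an intensity trend. Tests were two-sided. Equal weights were not used as the main setting because 2/4-cell libraries were less alike (Pearson's r over genes 0.884 to 0.900) than heart libraries. Nothing says that replicates were separate plants, so the spread behind the p-values may be technical. That spread was pooled for each gene over all 18 libraries, and the stage weights were shared by all genes. The lowest weight was 0.347 (2/4-cell) and the highest 2.14 (globular). The p-values therefore do not measure the spread of the compared libraries alone. Globular had the highest weight, yet the members' sum there went from 653 to 2950 TPM, so p-values involving globular may understate the members' own spread.

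The members, gene lists and comparisons were chosen with earlier results of these data known. The limits of 150 codons and 6 cysteine codons and the motifs were chosen after the members' values were seen. Genes named by rule were the 10 members with the highest ratio, the 10 with the highest 32-cell mean, members of a list, the 3 largest called changes per comparison and direction, and the 3 genes on either side of each limit. Other genes of a list were to be named where it held 2 or more members. No list did, so the 2 lists with 1 member were used. All other genes named were chosen after their values were seen. As alternatives the pseudocount was set to 0.1 and 5, the filter to none and to 5 TPM, and the scaling to median-ratio and quantile. Further ones were organelle genes left out, equal and library weights, a replicate block, only the stages compared, each library left out, and other limits for the rule.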

Additional observations from a re-analysis of the deposited data

How the results depend on the processing

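Against 59 members by the rule, 124 were found with a ratio of 1.5, 29 with a ratio of 3, 105 with a level of 5 TPM, 35 with a level of 20 TPM and 31 without overlap between libraries. With 1 library left out there were 53 to 69 members, and 24 of the 59 were kept whichever library was left out. Stage medians in place of means gave 59 genes, of which 39 were among the members (66.1%), and median-ratio scaling gave 50, of which 47 were. The 19 short, cysteine-rich members became 10 with a ratio of 3, 11 with 20 TPM and 8 without overlap, and 16 to 24 with 1 library left out, a count chosen after seeing the data. Members higher at 16-cell than at 2/4-cell (4) became 7 with a pseudocount of 0.1, 2 with 5, 16 with equal weights and 8 with only the stages compared, and 2 to 7 with 1 library left out, and 1 member was lower with equal weights. Members higher at globular than at 16-cell (2) became 1 with a pseudocount of 5, with quantile normalization or with only the stages compared, and 4 with library weights, and 0 to 3 with 1 library left out. Lower there, 0 became 1 with median-ratio scaling, quantile normalization or equal weights, and 0 to 5 with 1 library left out. Members lower at heart than at globular (14) became 9 with a pseudocount of 5, 2 without the filter, 4 with equal weights, 28 with library weights and 1 with only the stages compared, and 3 to 16 with 1 library left out. The other genes of the 2 lists called from 32-cell to globular (10) became 6 with median-ratio scaling or quantile normalization, 4 with equal weights and 5 to 11 with 1 library left out. The shares of tested genes called in these alternatives are not given here, so the counts show only how the members' and list genes' calls moved. The cause of these shifts was not tested. Of 580 alternatives to the 20 called changes of members, 455 kept the call, 125 lost it and 0 turned the direction. CXXS1 from globular to heart was the 1 change that kept its call in every alternative run.

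Over all tested genes, 9 of 45 pairs of same-numbered libraries had a correlation of deviations over 0.1, in a range of -0.139 to 0.21. Differently numbered pairs were not compared, so this cannot settle whether libraries were paired. Replicate 3 was the highest library for 57.6% of members at 8-cell (37.7% of tested genes), 55.9% at 16-cell (20.7%) and 72.9% at globular (21.6%). At 2/4-cell it was the highest for 33.9% (35.2%) and at heart for 28.8% (26.8%). With the replicate block, 5 members were higher at 16-cell than at 2/4-cell, 2 higher at globular than at 16-cell and 11 lower at heart than at globular (among those lost, AT1G78520 had a limma adjusted p of 0.108, AT3G49300 0.0616 and CEP1 0.0598), and 8 and 7 other genes of the lists were called at 32-cell against 16-cell and globular against 32-cell. The unknown depth limits what can be said of members near 1 TPM, where a value of 0 is a listing and not an absence.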
